A study of Homo sapiens with 12 samples.

Results

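The genes of mitochondrial ATP synthase and of cytochrome oxidase were followed in HT29 cells after knockdown of the nuclear receptor LRH-1. They were taken as every gene whose platform symbol starts with ATP5, or with COX followed by a digit or A. This gave 39 genes of the 7331 that the probe annotation names in the table, measured by 54 probes. Of these, 18 belonged to ATP synthase, 1 of them the pseudogene ATP5F1EP2, and 21 to cytochrome oxidase or its assembly. A gene with several probes was read from the probe with the highest mean over the arrays. HT29 is a colorectal cancer line. Cells received siLUC, a non-targeting siRNA against luciferase, or siLRH-1 #1 or siLRH-1 #2, which both target LRH-1 (NR5A2), each at 5 nM. RNA was taken 24 h later and hybridised to Illumina BeadChips, with 4 biological replicates in each of the 3 groups. All groups shared the same line, the transfection and the siRNA dose, and no untransfected cells were analysed here.

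ATP synthase is the rotary enzyme of the inner mitochondrial membrane that makes ATP as protons flow back through it. Cytochrome oxidase, the last complex of the respiratory chain, passes electrons to oxygen and pumps protons outward. Both are built from many nuclear-encoded subunits together with a few that mitochondrial DNA encodes, and the oxidase also needs heme and copper put in by dedicated assembly factors. Colon epithelial cells are known for burning butyrate, a product of gut bacteria, through this chain.

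Values are log2 signals, quantile-normalized by the authors, and a change is a difference between group means, with its standard error (SE) and n = 4 for each mean. A gene was called at an adjusted p under 0.05 from limma, adjusted over all 16381 probes. The array medians lay between 6.56 and 6.57, and 3 members (COX11, COX18 and COX6B2) had means below them. No probe of NR5A2 was analysed here, and the extent of the knockdown is not given. Of 12 colon epithelium markers, 10 were measured, and their probes had means from 6.92 to 13.44. Of 12 stromal and immune markers, 5 were measured, and 4 of them (COL1A2, DCN, LUM and CD79A) had means below the array medians. The array of siLRH-1 #2 replicate 2 stood apart, with 50 probes at least 0.5 above every other array, 0 of them probes used for the 39 genes.

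The set of RefSeq start regions (GRCh38.p14) used here covered 32 of the 39 genes, from 250 bases before to 50 after the start. These 300 bases were searched on both strands for the core of the LRH-1 site, written as CAAGGTC or CAAGGCC, and for CCGGAAG, the core bound by GABP, a factor known for driving respiratory chain genes. Either LRH-1 core stood in 7 of the 32 (21.9%) and in 9.24% of all 27305 start regions. The GABP core stood in 12 of the 32 (37.5%) against 10.7% of all. Start regions of 4 genes are shown, those of ATP5PB and COX7A2L because their signals differed most between the groups, and those of COX4I1 and COX8A as examples of the 4 that hold an LRH-1 core and a GABP core, ATP5MG and ATP5PD being the others. They run 5′ to 3′ on the strand of the gene, with the matches in capitals, all of them read on the opposite strand.
ATP5PB, chr1:111449214-111449513, plus strand: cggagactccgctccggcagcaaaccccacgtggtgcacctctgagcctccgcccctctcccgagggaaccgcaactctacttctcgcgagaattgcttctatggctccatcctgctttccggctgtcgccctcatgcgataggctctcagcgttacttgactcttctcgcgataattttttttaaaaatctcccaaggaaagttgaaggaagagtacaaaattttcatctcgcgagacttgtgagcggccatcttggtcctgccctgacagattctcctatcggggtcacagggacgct
COX7A2L, chr2:42361168-42361467, minus strand: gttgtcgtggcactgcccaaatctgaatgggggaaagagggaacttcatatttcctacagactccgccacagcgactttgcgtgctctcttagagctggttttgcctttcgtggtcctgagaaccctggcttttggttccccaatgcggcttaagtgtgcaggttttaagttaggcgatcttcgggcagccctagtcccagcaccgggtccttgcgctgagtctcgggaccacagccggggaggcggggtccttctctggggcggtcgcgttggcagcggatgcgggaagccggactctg
COX4I1, chr16:85799445-85799744, plus strand: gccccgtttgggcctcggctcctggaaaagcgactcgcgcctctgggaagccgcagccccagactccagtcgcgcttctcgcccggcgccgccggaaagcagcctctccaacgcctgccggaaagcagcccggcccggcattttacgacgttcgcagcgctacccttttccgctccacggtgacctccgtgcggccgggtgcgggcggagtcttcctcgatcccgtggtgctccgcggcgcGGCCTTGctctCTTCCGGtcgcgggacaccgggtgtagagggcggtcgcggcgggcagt
COX8A, chr11:63974370-63974669, plus strand: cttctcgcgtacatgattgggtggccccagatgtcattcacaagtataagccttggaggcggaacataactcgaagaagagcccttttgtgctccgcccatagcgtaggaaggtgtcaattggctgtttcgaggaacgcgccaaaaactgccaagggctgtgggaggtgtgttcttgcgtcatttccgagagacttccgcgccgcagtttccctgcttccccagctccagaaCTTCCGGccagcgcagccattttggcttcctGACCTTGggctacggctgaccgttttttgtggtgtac
In COX4I1 the LRH-1 core began 9 bases before the start and the GABP core 2 bases after it, and in COX8A the GABP core began 18 bases before the start and the LRH-1 core 13 after it. The 2 regions from ATP5PB and COX7A2L held 0 matches to these letters. A match is a description of the letters, not of binding.

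The first question was whether either siRNA moved the 2 complexes as a whole. Few of their genes changed with either. With siLRH-1 #1, 3 of the 39 genes were called (7.69%), all lower, against 7.00% of all probes (3.22% higher and 3.78% lower) and 10.2% of the 7331 named genes. At an unadjusted p under 0.05 there were 9 (2 higher and 7 lower), against 18.5% of all probes. With siLRH-1 #2, 0 of the 39 were called by limma, against 7.00% of all probes (3.25% higher and 3.74% lower) and 10.0% of the named genes. In that comparison 5 had an unadjusted p under 0.05 (2 higher and 3 lower), against 19.6% of all probes. The share called with siLRH-1 #1 was therefore near that of all probes. The median change of the 39 was 0.007 with siLRH-1 #1 and 0.016 with siLRH-1 #2. Over all probes it was 0.001 with each, and over the named genes 0.006 and 0.012. Arrays of siLRH-1 #1 and siLUC did not overlap for 11 of the 39 (5 higher and 6 lower), against 13.2% of all probes (6.62% higher and 6.59% lower). Those of siLRH-1 #2 and siLUC did not overlap for 5 (2 higher and 3 lower), against 12.8% (6.40% higher and 6.43% lower). Over the 7331 named genes, 1360 did not overlap with siLRH-1 #1 and 1308 with siLRH-1 #2. Both comparisons used the same siLUC arrays. The arrays measured RNA of whole cultures, so a change in every cell cannot be told apart from a larger change in some cells.

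The intervals say how much change these arrays leave room for. With siLRH-1 #1, the 95% interval of the change lay within 1.2-fold either way for 29 of the 39 genes (74.4%), against 69.9% of the named genes. With siLRH-1 #2 it did for 35 of 39 (89.7%), against 67.9%, and for 18 of 18 ATP synthase genes. The replicates of these genes also lay close together, with a median SD of 0.074 against 0.091 over the named genes. The smallest SDs were those of ATP5MF and COX6B1 (each 0.037), and the largest were those of COX7A2L (0.113) and COX18 (0.120).

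**Figure D1:**
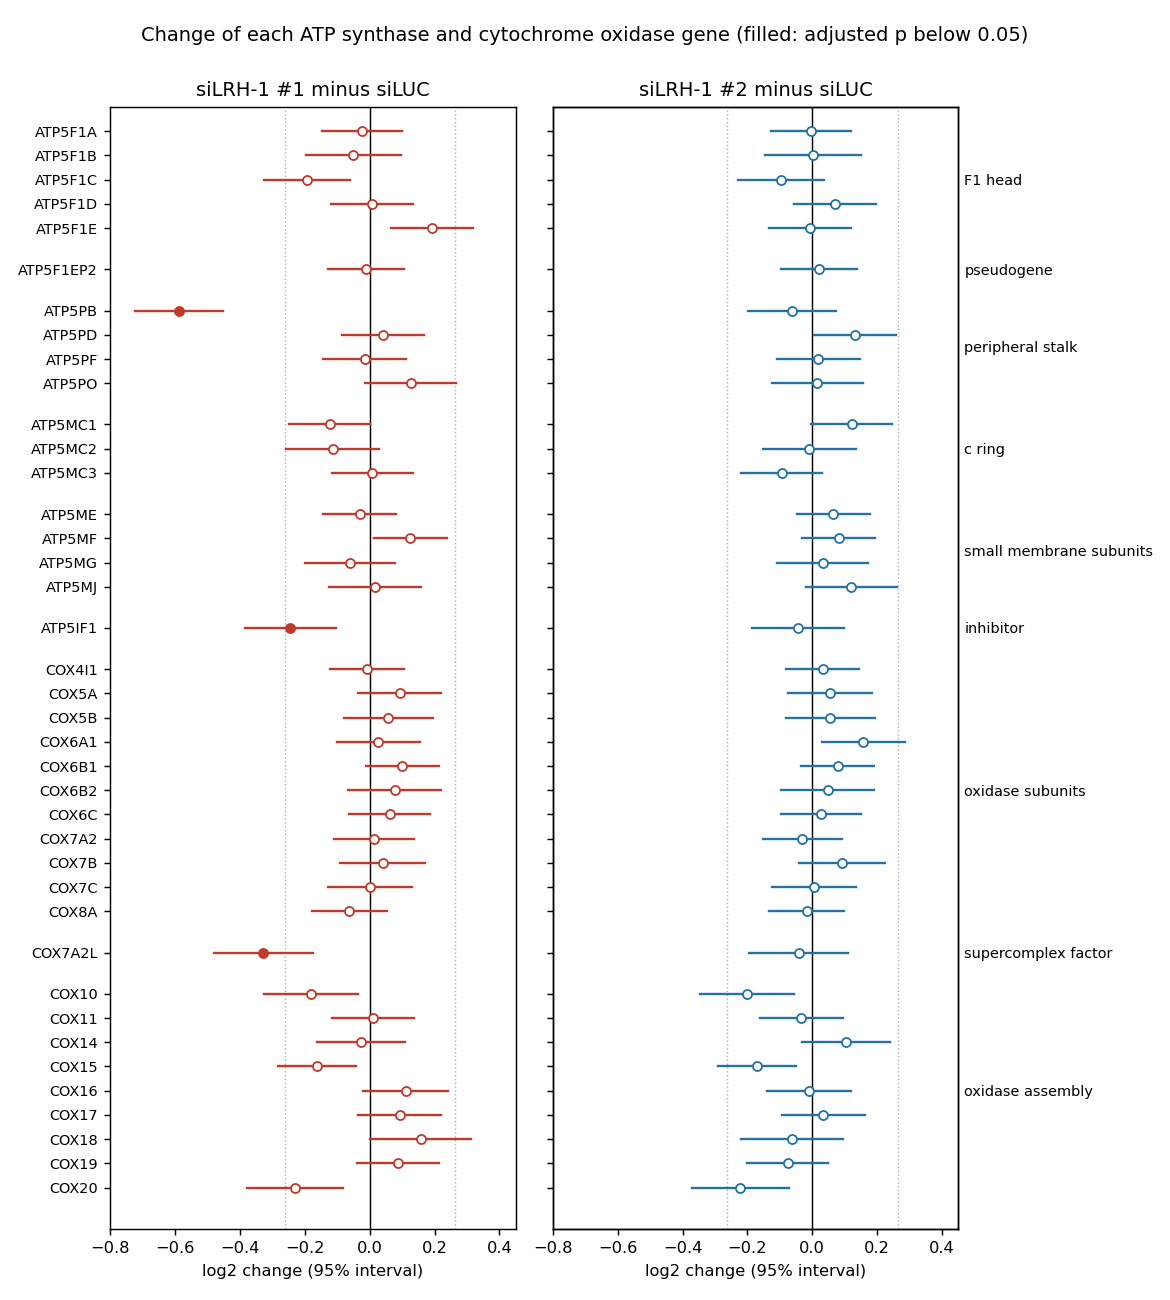
Log2 change of each gene against siLUC (points) with its 95% interval (lines), for siLRH-1 #1 on the left and siLRH-1 #2 on the right, ordered by role; filled points were called and the dotted lines mark 1.2-fold. The 3 filled points on the left are ATP5PB, ATP5IF1 and COX7A2L, and the right side has 0.

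The catalytic F1 head of ATP synthase held 5 measured genes, and 0 of them were called against siLUC with either siRNA, with 2 at an unadjusted p under 0.05 with siLRH-1 #1 and 0 with siLRH-1 #2. ATP5F1A and ATP5F1B encode the alpha and beta subunits that form ATP. Their changes were -0.02 and -0.05 with siLRH-1 #1, and 0.00 for each with siLRH-1 #2. ATP5F1D, which encodes the delta subunit, had changes of 0.01 and 0.07. ATP5F1C encodes the gamma subunit, the shaft that turns inside the head. With siLRH-1 #1 its change was -0.19 (SE 0.06, adjusted p = 0.0774), and the other siRNA gave -0.10 (adjusted p = 0.44).

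ATP5F1E encodes the small epsilon subunit of the same shaft. Its log2 signals were 11.55, 11.61, 11.70 and 11.54 with siLUC, 11.80, 11.78, 11.79 and 11.79 with siLRH-1 #1, and 11.48, 11.66, 11.55 and 11.69 with siLRH-1 #2. All 4 arrays of siLRH-1 #1 lay above all 8 others. The difference between the siRNAs was 0.20 (SE 0.06, 1.15-fold, adjusted p = 0.0406), and the change with siLRH-1 #1 against siLUC was 0.19 (SE 0.06, adjusted p = 0.0633), which missed the threshold and passed it only without siLUC replicate 3 (adjusted p = 0.0404) among the arrays left out in turn. The call between the siRNAs was lost without siLUC replicate 2, any 1 of the 4 siLRH-1 #1 arrays, or siLRH-1 #2 replicate 1 or 3, with adjusted p from 0.0503 to 0.154. ATP5F1EP2 is a pseudogene copy of ATP5F1E, so the probes of the pair cannot be told apart with certainty. The brighter probe named for ATP5F1EP2 had changes of -0.01 with siLRH-1 #1 and 0.02 with siLRH-1 #2. Its other probe had changes of 0.08 and 0.01, and neither probe was called.

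Among the 4 genes of the peripheral stalk, the static arm that holds the head against rotation, ATP5PB stood out. ATP5PB encodes subunit b, the long helix of that arm. Its log2 signals were 12.62, 12.58, 12.58 and 12.77 with siLUC, 12.09, 12.09, 12.08 and 11.93 with siLRH-1 #1, and 12.69, 12.49, 12.50 and 12.60 with siLRH-1 #2. Every siLRH-1 #1 array lay below every other array, while siLUC and siLRH-1 #2 overlapped. The signal fell by 0.59 with siLRH-1 #1 (SE 0.07, 1.51-fold lower, adjusted p = 2.75e-06), the largest change of the 39 genes with either siRNA. With siLRH-1 #2 the change was -0.06 (95% interval -0.20 to 0.07, adjusted p = 0.664). The siRNAs differed directly by -0.53 (SE 0.07, adjusted p = 6.48e-06), lower with siLRH-1 #1.

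A second ATP5PB probe was called in the same comparisons. Its log2 signals were 11.03, 10.73, 10.84 and 11.04 with siLUC, 10.15, 10.27, 10.20 and 10.09 with siLRH-1 #1, and 10.75, 10.75, 10.67 and 10.87 with siLRH-1 #2. Again the siLRH-1 #1 arrays lay below the rest. It fell by 0.73 with siLRH-1 #1 (SE 0.07, adjusted p = 5.49e-07), against a change of -0.15 (adjusted p = 0.256) with siLRH-1 #2. Directly compared, the siRNAs lay 0.58 apart (adjusted p = 6.35e-06). ATP5PD, ATP5PF and ATP5PO encode the other stalk subunits, d, F6 and OSCP. Their changes were 0.04, -0.02 and 0.13 with siLRH-1 #1 and 0.13, 0.02 and 0.02 with siLRH-1 #2, and 0 of these 3 were called in any comparison, with 1 at an unadjusted p under 0.05 (ATP5PD with siLRH-1 #2).

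The c subunits form the membrane ring that protons turn, and 3 genes, ATP5MC1, ATP5MC2 and ATP5MC3, encode the same mature protein. ATP5MC1 had log2 signals of 11.45, 11.28, 11.30 and 11.39 with siLUC, 11.24, 11.29, 11.12 and 11.27 with siLRH-1 #1, and 11.44, 11.46, 11.48 and 11.54 with siLRH-1 #2. The 2 siRNA groups did not overlap, and siLUC lay between them and overlapped both. The siRNAs differed by -0.24 (SE 0.06, 1.18-fold, adjusted p = 0.0095), lower with siLRH-1 #1. Neither change against siLUC was called (-0.12 and 0.12, adjusted p = 0.279 and 0.272).

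The dimmer ATP5MC1 probe placed siLUC with siLRH-1 #2 instead. It read 8.69, 8.69, 8.76 and 8.70 with siLUC, 8.43, 8.47, 8.47 and 8.26 with siLRH-1 #1, and 8.69, 8.60, 8.71 and 8.77 with siLRH-1 #2. The siLRH-1 #1 arrays lay below all others, by 0.30 against siLUC (SE 0.06, adjusted p = 0.00275) and by 0.28 against siLRH-1 #2 (adjusted p = 0.00349). The probes thus shared the call between the siRNAs and not the one against siLUC. With the mean of both probes the change with siLRH-1 #1 against siLUC was -0.21 and was called (adjusted p = 0.0145). ATP5MC2 and ATP5MC3 were not called. With siLRH-1 #1 their changes were -0.11 and 0.01, and with siLRH-1 #2 they were -0.01 and -0.09.

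**Figure D2:**
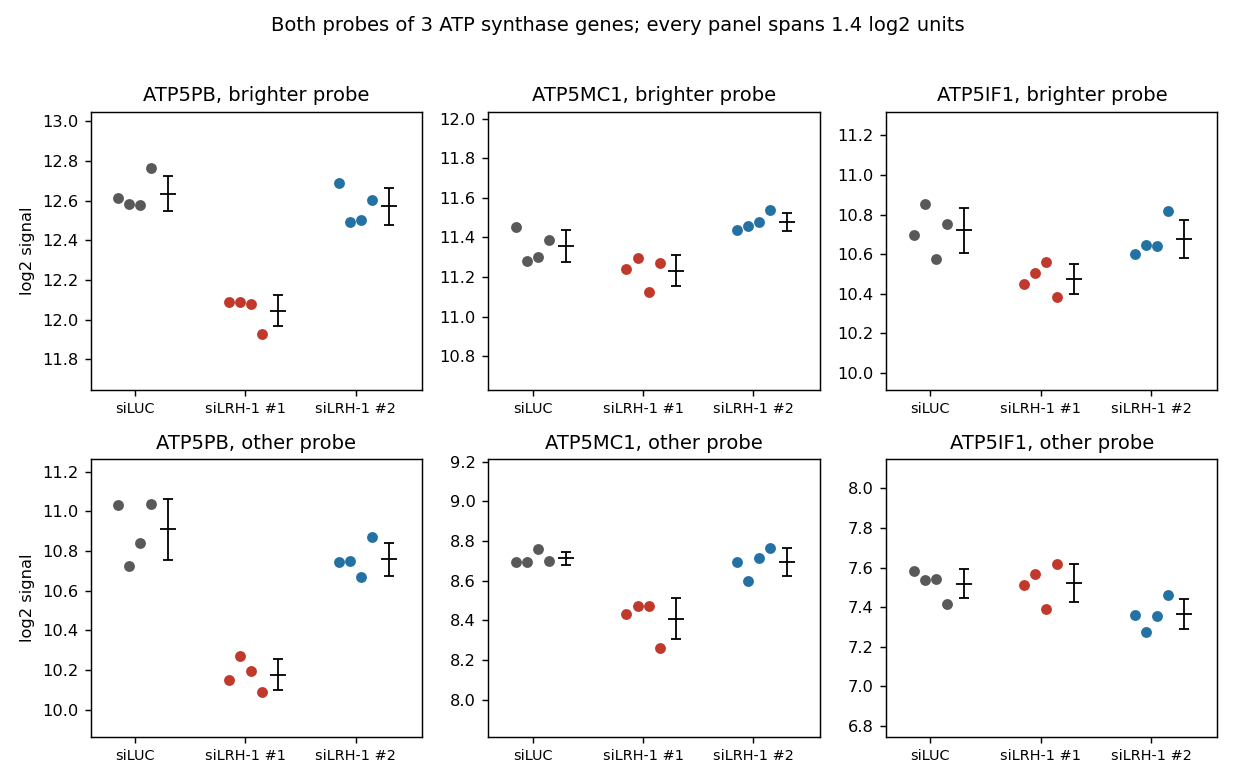
Log2 signal on each array (points) with the group mean and SD (n = 4, black), for the brighter probe used (top) and the other probe (bottom) of ATP5PB, ATP5MC1 and ATP5IF1. With siLRH-1 #1, both probes of ATP5PB were low, the other probe of ATP5MC1 was lower than both groups, and the ATP5IF1 probes differed.

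The small membrane subunits ATP5ME, ATP5MF, ATP5MG and ATP5MJ were measured, the first 3 of them being subunits e, f and g at the membrane base. Their changes ran from -0.06 to 0.13 with siLRH-1 #1 and from 0.03 to 0.12 with siLRH-1 #2, and 0 of 4 were called in any comparison, with 1 at an unadjusted p under 0.05 (ATP5MF with siLRH-1 #1).

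ATP5IF1 encodes the inhibitor that blocks ATP synthase from running backwards and burning ATP. The arrays read 10.70, 10.85, 10.58 and 10.75 with siLUC, 10.45, 10.51, 10.56 and 10.38 with siLRH-1 #1, and 10.60, 10.65, 10.64 and 10.82 with siLRH-1 #2. The siLRH-1 #1 arrays were the lowest 4 of the 12, with the nearest siLUC array only just above them. The signal fell by 0.24 with siLRH-1 #1 (SE 0.07, 1.18-fold lower, adjusted p = 0.03) and had a change of -0.04 with siLRH-1 #2 (adjusted p = 0.8). Set against siLRH-1 #2, siLRH-1 #1 gave -0.20, short of a call (adjusted p = 0.068). The call with siLRH-1 #1 was lost without siLUC replicate 1, 2 or 4 and without siLRH-1 #1 replicate 1 or 4 (adjusted p from 0.0573 to 0.126). A second, dimmer probe had a change of 0.00 (adjusted p = 0.992), and with the mean of both probes the adjusted p was 0.235. These values compare siLRH-1 #1 to siLUC. Between the siRNAs the dimmer probe pointed the other way, reading 0.16 higher under siLRH-1 #1 (adjusted p = 0.14). Its siLRH-1 #2 mean differed from that of siLUC by -0.16 (adjusted p = 0.168), and neither difference was called.

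For the nuclear-encoded subunits of cytochrome oxidase itself no change was called. The 11 measured were COX4I1, COX5A, COX5B, COX6A1, COX6B1, COX6B2, COX6C, COX7A2, COX7B, COX7C and COX8A. Of these, COX6B2 is known as a testis form. Their changes ran from -0.06 to 0.10 with siLRH-1 #1 and from -0.03 to 0.16 with siLRH-1 #2, and 0 of 11 were called in any comparison. At an unadjusted p under 0.05 there were 0 with siLRH-1 #1, 1 with siLRH-1 #2 (COX6A1, 0.16, adjusted p = 0.14) and 1 between the siRNAs (COX6A1 again, -0.13, adjusted p = 0.219). The 95% interval lay within 1.2-fold for 11 of 11 with siLRH-1 #1 and for 10 of 11 with siLRH-1 #2, the exception being COX6A1. COX4I1 and COX8A, whose start regions are shown above, gave changes of -0.01 and -0.06 for siLRH-1 #1, and the other siRNA gave 0.03 and -0.02. Of the 7 genes with an LRH-1 core in the start region (ATP5MC2, ATP5MG, ATP5MJ, ATP5PD, COX4I1, COX7C and COX8A), 0 were called in any comparison and 1 (ATP5PD) had an unadjusted p under 0.05 in any. Of the 12 with a GABP core, 0 were called and 4 (ATP5PD, COX10, COX15 and COX6A1) had an unadjusted p under 0.05 in any comparison. Of all probes, 15.6% were called and 36.3% had an unadjusted p under 0.05 in at least 1 of the 3 comparisons, and with so few genes nothing is read from these counts.

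COX7A2L resembles a subunit of the oxidase and is known for joining complexes III and IV into supercomplexes. COX7A2L had 1 named probe, so no other probe could be compared. Its log2 signals were 11.86, 11.56, 11.80 and 11.86 with siLUC, 11.49, 11.44, 11.41 and 11.43 with siLRH-1 #1, and 11.85, 11.59, 11.83 and 11.65 with siLRH-1 #2. The 4 siLRH-1 #1 arrays lay together below all others, while siLUC replicate 2 and siLRH-1 #2 replicate 2 lay nearest to them. The signal fell by 0.33 with siLRH-1 #1 (SE 0.07, 1.26-fold lower, adjusted p = 0.0063), against a change of -0.04 with siLRH-1 #2 (95% interval -0.19 to 0.11, adjusted p = 0.83). The siRNAs differed by -0.29 (SE 0.07, adjusted p = 0.0122). That difference was no longer called without siLRH-1 #2 replicate 1 (-0.25, adjusted p = 0.0574). By contrast COX7A2, a subunit related to it in sequence, had changes of 0.01 and -0.03.

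**Figure D3:**
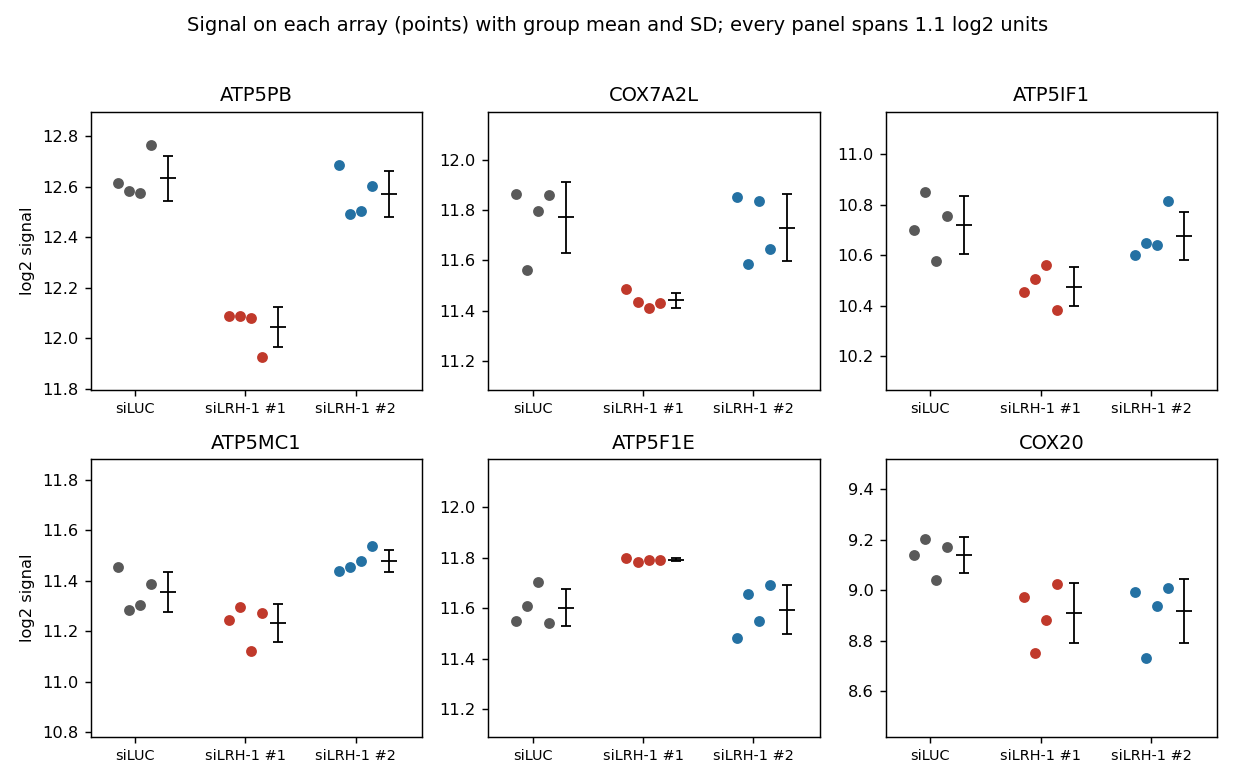
Log2 signal on each array (points, in the order of replicate number) with the group mean and SD (n = 4, black) for the 5 genes called in any comparison and for COX20; every panel spans 1.1 log2 units. The siLRH-1 #1 arrays stand below all others for ATP5PB, COX7A2L and ATP5IF1 and above all others for ATP5F1E, and both siRNA groups stand below siLUC for COX20.

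Assembly factors of the oxidase held 9 of the genes, and 0 of 9 were called in any comparison. At an unadjusted p under 0.05 there were 3 against siLUC for each siRNA (COX10, COX15 and COX20, all with lower means). Of all probes, 18.5% with siLRH-1 #1 and 19.6% with siLRH-1 #2 passed that threshold. Between the siRNAs there were 2 (COX18 and COX19), against 21.3% of all probes. With only 9 genes nothing is read from these counts. COX20 encodes a chaperone of the COX2 subunit. It read 9.14, 9.20, 9.04 and 9.17 with siLUC, 8.97, 8.75, 8.88 and 9.03 with siLRH-1 #1, and 8.99, 8.73, 8.94 and 9.01 with siLRH-1 #2. Both siRNA groups lay below siLUC and over the same range as each other. The changes, -0.23 for siLRH-1 #1 (SE 0.07, adjusted p = 0.0568) and, for siLRH-1 #2, -0.22 (SE 0.07, adjusted p = 0.0672), fell just short of the threshold. COX20 passed it with siLRH-1 #1 without siLUC replicate 3, siLRH-1 #1 replicate 4 or siLRH-1 #2 replicate 2. Among the arrays left out in turn, the lowest adjusted p was 0.0307. Of 10 other alternatives, COX20 passed in 6 with siLRH-1 #1 and in 3 with siLRH-1 #2.

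COX10 and COX15 encode the enzymes that turn heme B first into heme O and then into heme A, the form that the oxidase carries. COX10 had log2 signals of 9.36, 9.17, 9.24 and 9.07 with siLUC, 9.15, 8.91, 9.11 and 8.94 with siLRH-1 #1, and 8.99, 8.99, 9.07 and 8.99 with siLRH-1 #2. Only the siLRH-1 #2 arrays lay below all siLUC arrays, narrowly so against siLUC replicate 4. The changes were -0.18 (adjusted p = 0.143) and -0.20 (adjusted p = 0.089), and without siLUC replicate 4 the change with siLRH-1 #2 was -0.25 (adjusted p = 0.0448). COX15 had log2 signals of 8.13, 8.11, 8.06 and 8.01 with siLUC, 7.87, 8.00, 7.92 and 7.86 with siLRH-1 #1, and 7.91, 7.83, 7.96 and 7.93 with siLRH-1 #2. Each siRNA group lay below siLUC, with changes of -0.16 (adjusted p = 0.108) and -0.17 (adjusted p = 0.0832). A second COX15 probe, with a mean below the array medians, had changes of -0.20 (adjusted p = 0.119) and -0.15 (adjusted p = 0.284). On that probe each siRNA group overlapped siLUC. These values are given as measured, since neither gene was called.

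The other 6 factors are COX11 and COX17, which deliver copper, COX19, and COX14, COX16 and COX18, which act in the assembly of mitochondrially encoded subunits. Their changes lay between -0.03 and 0.16 with siLRH-1 #1 and between -0.08 and 0.10 with siLRH-1 #2. COX18 had the largest spread of the 39 genes between replicates (SD 0.120) and lies below the array medians. The direct difference between the siRNAs was 0.22 for COX18 (adjusted p = 0.0724) and 0.16 for COX19 (adjusted p = 0.0986).

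**Figure D4:**
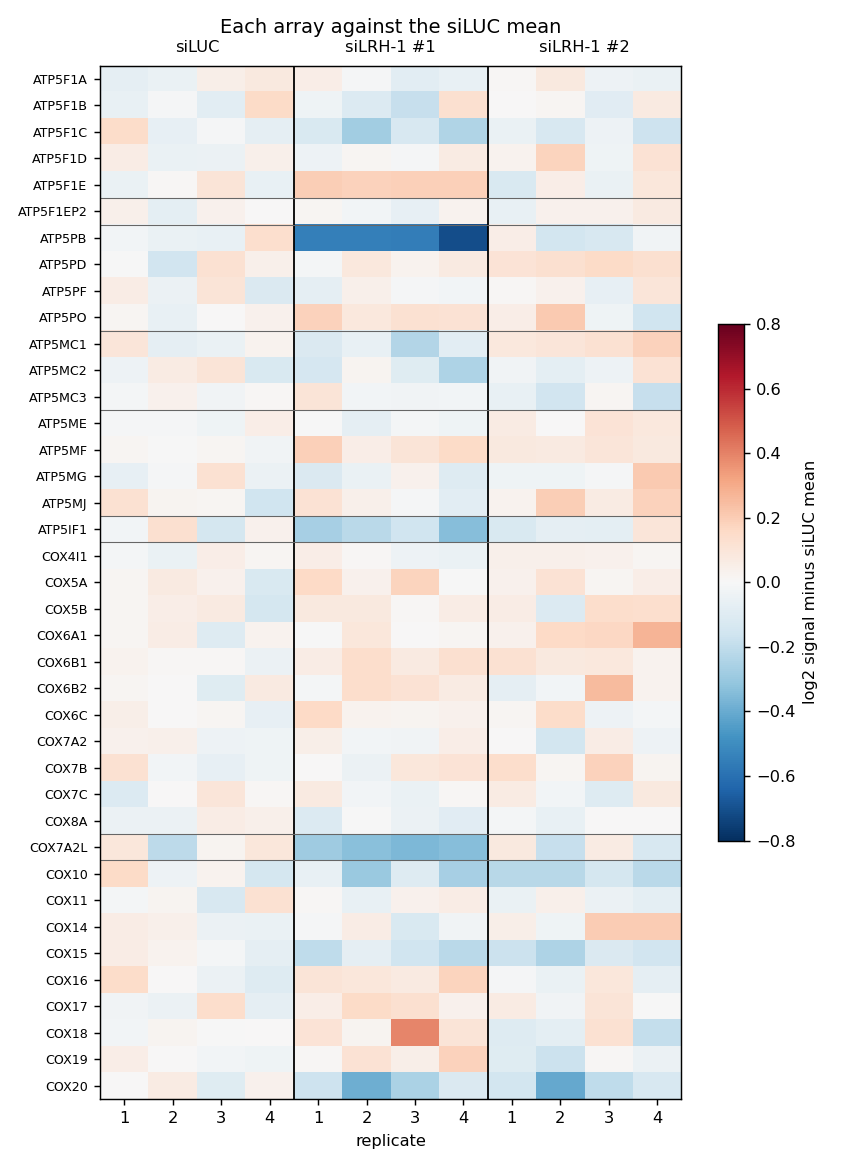
Log2 signal of each gene (down) on each of the 12 arrays (across, replicates 1 to 4 of each group) minus the siLUC mean of that gene; red is higher and blue lower, on a scale from -0.8 to 0.8, with thin lines between roles. ATP5PB is dark blue with siLRH-1 #1 on 4 of 4 arrays, COX7A2L and ATP5IF1 are paler blue there, and COX10, COX15 and COX20 are pale blue with both siRNAs.

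Set directly against each other at the same dose and time, the siRNAs differed for 4 of the 39 genes (10.3%), against 9.94% of all probes (4.82% higher and 5.13% lower with siLRH-1 #1). ATP5PB, COX7A2L and ATP5MC1 were lower with siLRH-1 #1, and ATP5F1E was higher with it. A further 35 genes were not called, with differences up to 0.22 in size. For 31 of the 39 the 95% interval of the difference lay within 1.2-fold, against 65.8% of the named genes. The arrays of the siRNAs did not overlap for 7 of the 39 (1 higher and 6 lower with siLRH-1 #1), against 14.9% of all probes (7.61% higher and 7.32% lower). They did not overlap for 1497 of the 7331 named genes. Of the 14 members with several probes, ATP5PB was called by every probe with siLRH-1 #1, and ATP5IF1 and ATP5MC1 by 1 probe only. With siLRH-1 #2, 0 had any probe called, and between the siRNAs ATP5MC1 and ATP5PB were called by every probe.

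The neighbouring steps of respiration were thinly covered by named probes. Of the 16381 probes, 6621 had no gene symbol, so genes of any list not counted as measured may still have a probe. Of 37 complex I subunits, 1 (NDUFB4) was measured and not called (adjusted p = 0.132 with siLRH-1 #1). Of 15 genes of complexes II and III and of cytochrome c, 3 (CYC1, CYCS and HCCS) were measured. HCCS encodes the enzyme that attaches heme to cytochrome c, and its mean was 8.35 ± 0.07 in siLUC, 8.59 ± 0.11 in siLRH-1 #1 and 7.84 ± 0.16 in siLRH-1 #2 cells (SD, n = 4). It fell by 0.52 with siLRH-1 #2 (SE 0.07, 1.43-fold, adjusted p = 7.96e-05), while its change with siLRH-1 #1 was 0.23 (adjusted p = 0.0636, called among the arrays left out in turn only when replicate 3 of siLRH-1 #1 or replicate 2 of siLRH-1 #2 was). The siRNAs differed by 0.75 (adjusted p = 4.16e-07), higher with siLRH-1 #1. Its other probe, with a mean below the array medians, was not called in any comparison. That probe had changes of -0.05 with siLRH-1 #1 (adjusted p = 0.852) and -0.30 with siLRH-1 #2 (adjusted p = 0.0879). Between the siRNAs it differed by 0.24 (adjusted p = 0.157). The probe of CYCS, the cytochrome c gene, also had a mean below the array medians.

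Of 26 other assembly factors for the 2 complexes, 16 were measured. With siLRH-1 #1, 1 was called lower and 0 higher, and with siLRH-1 #2, 2 lower and 0 higher, around medians of 0.02 with each. CMC2, an assembly factor of the oxidase, fell by 0.32 with siLRH-1 #2 (SE 0.06, adjusted p = 0.00136) and had a change of 0.00 with siLRH-1 #1. The siRNAs lay 0.32 apart (adjusted p = 0.000782). COA7, another, fell by 0.27 with siLRH-1 #2 (SE 0.07, adjusted p = 0.0136), a call lost without siLUC replicate 2 (adjusted p = 0.0539) or 3 (adjusted p = 0.0529). FMC1, whose counterpart in yeast is needed to assemble the F1 head, fell by 0.22 with siLRH-1 #1 (SE 0.06, adjusted p = 0.0333) and had a change of 0.16 with siLRH-1 #2 (adjusted p = 0.134). The siRNAs differed for FMC1 by -0.38 (adjusted p = 0.000193). Its call with siLRH-1 #1 did not hold when siLUC replicate 1, 2 or 4 was left out, nor when replicate 1, 3 or 4 of siLRH-1 #1 was (adjusted p from 0.0615 to 0.142), and its 2 other probes were not called in any comparison.

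Of 15 genes of mitochondrial transcription and biogenesis, 5 (ESRRA, GABPA, GABPB1, MTERF1 and TEFM) were measured. With siLRH-1 #1, 1 was called lower and 0 higher. GABPB1 encodes the beta subunit of GABP, the factor whose core was searched for above. Its mean was 10.40 ± 0.09 in siLUC, 9.96 ± 0.06 in siLRH-1 #1 and 10.30 ± 0.08 in siLRH-1 #2 cells (SD, n = 4). It fell by 0.45 with siLRH-1 #1 (SE 0.06, 1.36-fold, adjusted p = 5.95e-05), its change with siLRH-1 #2 was -0.11 (adjusted p = 0.361), and the siRNAs differed by -0.34 (adjusted p = 0.000801). Its 2 other probes were also called lower with siLRH-1 #1 (-0.31 and -0.32, adjusted p = 0.015 and 0.0112) but not between the siRNAs (adjusted p = 0.107 and 0.088). GABPA, the DNA-binding subunit, was not called. Of 11 genes listed for the exchange of ATP and phosphate with the cytosol, 3 were measured, AK3, AK4 and CKMT1B. These 3 encode kinases, and no carrier or pore on that list was counted as measured, so the exchange itself was not assessed. With either siRNA 0 of 3 were called, with 1 at an unadjusted p under 0.05 (AK4, higher with siLRH-1 #1).

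The vacuolar proton pump is the relative of ATP synthase that spends ATP to acidify lysosomes, and 15 of its 16 listed genes were measured. With siLRH-1 #1, 1 was called higher and 1 lower, and with siLRH-1 #2, 1 higher and 0 lower, around a median of -0.01 with siLRH-1 #1 and 0.00 with siLRH-1 #2. ATP6V1D, of its central shaft, rose with both siRNAs, from 10.79 ± 0.03 to 11.10 ± 0.12 and 11.16 ± 0.02 (SD, n = 4). Its changes were 0.31 and 0.37 (SE 0.06 each, adjusted p = 0.00177 and 0.000357). ATP6V1B2, a subunit of its ATP-splitting head, fell by 0.37 with siLRH-1 #1 (SE 0.07, adjusted p = 0.000742) and had a change of -0.14 with siLRH-1 #2 (adjusted p = 0.249). Its value with siLRH-1 #1 was 0.23 below that with siLRH-1 #2 (adjusted p = 0.0245), a call lost without siLRH-1 #1 replicate 2 or 3 or siLRH-1 #2 replicate 1 (adjusted p from 0.0516 to 0.0977). ATP6AP2, an accessory subunit, differed between the siRNAs by -0.21 (adjusted p = 0.0388). Its change with siLRH-1 #1, -0.19, was called, of the arrays left out in turn, only without siLUC replicate 2 (adjusted p = 0.033). The call between the siRNAs was lost without any 1 of siLRH-1 #1 replicates 2 to 4 and of the 4 siLRH-1 #2 arrays (adjusted p from 0.0585 to 0.138).

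**Figure D5:**
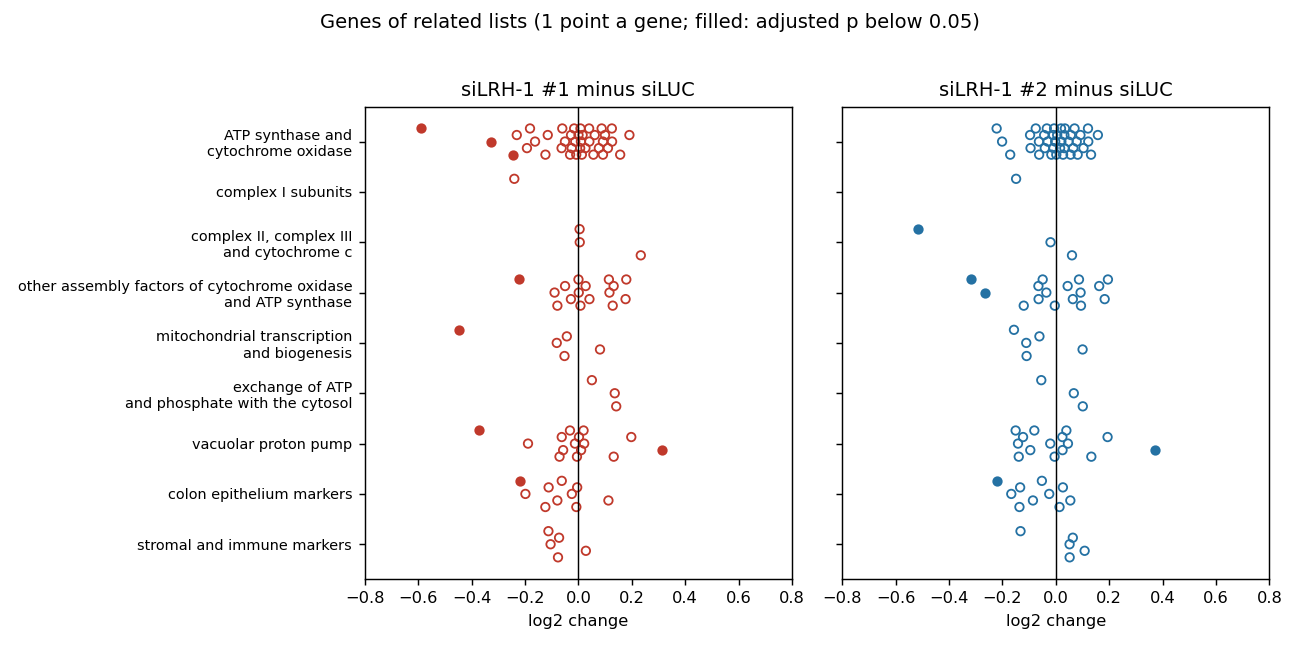
Log2 change against siLUC of the ATP synthase and cytochrome oxidase genes and of the genes of 8 related lists (1 point for each measured gene, spread vertically for legibility only), for siLRH-1 #1 on the left and siLRH-1 #2 on the right; filled points were called. Most points lie near 0, and the filled ones include ATP5PB on the left, HCCS on the right and ATP6V1D on both sides.

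Among the markers, 1 of the 10 measured of colon epithelium was called, CEACAM5, a surface adhesion protein, which fell by 0.22 with each siRNA (SE 0.06, adjusted p = 0.0376 and 0.0352). With siLRH-1 #1 the call did not hold when siLUC replicate 2, 3 or 4 was left out, nor when replicate 1, 3 or 4 of siLRH-1 #1 was (adjusted p from 0.0549 to 0.165). With siLRH-1 #2 the same held for siLUC replicates 2, 3 and 4 and for replicates 2, 3 and 4 of that siRNA (adjusted p from 0.0678 to 0.106). Of the 5 stromal and immune markers, 0 were called by limma in any comparison, with 0 at an unadjusted p under 0.05 against siLUC and 1 between the siRNAs.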

How the data were processed

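Expression was measured in 12 HT29 cultures on the HumanHT-12 v4 BeadChip of Illumina. The authors processed the images in GenomeStudio, removed probes with a detection p above 0.05 in every sample, and deposited log2 signals after quantile normalization, and these log2 values were used as they are. Partek is also named in the submitters' processing notes (versions not given in the sources used here). A further table of unnormalized signals was left out, since its 24 per-sample columns do not carry names that match the labels. No 2 arrays held identical values (0 pairs).

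Of 16381 probes, 9756 had 1 gene symbol in the platform annotation, 4 had several and 6621 had none. Changes were fitted with limma 3.58.1 in R 4.3.3 (a mean per group, contrasts, eBayes), with two-sided p-values adjusted by Benjamini-Hochberg over the whole table and 1 spread shared by the 3 groups (9 residual and 12.1 prior degrees of freedom). Intervals are 95% intervals of that fit. The number of arrays limits the precision. Start regions came from RefSeq.

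The rule for members reads symbols only, but the members and lists were chosen with earlier results of these data known. Shown on every array were the members called in any comparison, filled up to 6 by the smallest p, to which COX10 and COX15 were added after their values were seen. From each list up to 4 called genes were named. Alternatives covered scaling, the probes tested, the model of the spread, the probe of a gene, a replicate block and leaving out each array.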

Additional observations from a re-analysis of the deposited data

Results flagged for a closer look

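In 5 of 117 groups of 4 arrays (39 genes in 3 groups), 1 array lay far from the other 3 by Dixon's criterion, and chance alone marks about 1 group in 20. ATP5PB read 11.93 on siLRH-1 #1 replicate 4, below the 12.08 to 12.09 of the other arrays of its group. Without that array the change of ATP5PB with siLRH-1 #1 was -0.55, still called. ATP5MC3 read 7.68 on siLRH-1 #1 replicate 1, above the others at 7.55 to 7.56. COX6C read 12.93 on the same array, above the others at 12.80 to 12.81. ATP5MG read 13.58 on siLRH-1 #2 replicate 4, above the others at 13.33 to 13.36. COX10 read 9.07 on siLRH-1 #2 replicate 3, where the other 3 arrays all read 8.99.

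Between the siRNAs, 4 genes differed in the direct test, siLRH-1 #1 minus siLRH-1 #2. The differences were -0.53 for ATP5PB, -0.29 for COX7A2L, -0.24 for ATP5MC1 and 0.20 for ATP5F1E, each with 4 of 4 arrays of one siRNA on one side of the 4 of the other. Their causes were not tested.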

How the results depend on the processing

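Over 22 alternatives, ATP5PB stayed called with siLRH-1 #1 and between the siRNAs in 22, COX7A2L with siLRH-1 #1 in 22 and between the siRNAs in 20, and ATP5MC1 between the siRNAs in 22. COX7A2L, ATP5F1E and COX20 each had 1 named probe, which no alternative could vary. Direction was followed for the members shown on every array, the other probes of ATP5PB, ATP5MC1 and ATP5IF1, and the called genes named from the lists. None of these changed direction with a call on either side (0 cases). With siLRH-1 #1, the 3 called members became 7 with only probes brighter than the median probe (1 higher and 6 lower), 6 with a trended robust spread, 5 when adjusted over 1 probe per named gene, and 2 to 5 when an array was left out, the 5 without siLUC replicate 3. With siLRH-1 #2, the count of 0 became 3 with the brighter probes (COX10, COX15 and COX20), 1 without moderation of the spread (COX15), 1 with a trended robust spread (COX20), 1 over 1 probe per named gene (COX20), and 0 to 1 when an array was left out, the 1 (COX10) without siLUC replicate 4. Fewer probes were tested with the brighter probes and with 1 probe per gene. Between the siRNAs the 4 became 2 without siLRH-1 #2 replicate 1 (2 to 4 when an array was left out), and 3 to 6 under the other alternatives, the 6 with the brighter probes. Without moderation of the spread, the call of ATP5IF1 (adjusted p = 0.0799) and that of COX7A2L between the siRNAs (adjusted p = 0.0609) were lost.

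The replicate numbers did not pair the arrays (correlations of same-numbered arrays from -0.15 to 0.20, and 2 of 12 arrays closest to their own number). With a replicate block the counts were 4, 0 and 4, COX20 being gained with siLRH-1 #1, and ATP5F1E lost and COX18 gained between the siRNAs. Signals of COX11, COX18 and COX6B2 lie below the array medians, so small changes there may not be seen.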
